A study of Mus musculus with 12 samples.

Results

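Besides the Rbfox, CELF and STAR-family genes, a handful of genes that encode other RNA-binding proteins carried binding sites of SLM2 in mouse brain. The 5 genes described here, *Elavl3*, *Fmr1*, *Nova1*, *Tardbp* and *Tia1*, were picked from the deposited peak lists because each holds at least 1 whole-brain peak, so that the presence of a peak in them is the criterion and not a result. A peak was given to a gene where its centre lay within the gene's span on the gene's strand (mm10 coordinates, GENCODE vM21 annotation). By this rule the 5 genes held 6 of the 2057 whole-brain peaks and 1 of the 178 hippocampal peaks. They are 5 of the 467 genes with a whole-brain peak, and *Tardbp* is 1 of the 109 genes with a hippocampal peak.

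SLM2, the product of *Khdrbs3*, was mapped by eCLIP, in which RNA is cross-linked to protein by UV light, the protein is immunoprecipitated, and its RNA is sequenced beside a size-matched input that skips the immunoprecipitation. Tissue came from mice aged 30 days, on a C57BL/6J background by the study's methods, and was exposed to UV 3 times at 400 mJ/cm2. The groups used were eCLIP libraries of wild-type (WT) whole brain (n = 2) with their inputs (n = 2) and eCLIP libraries of WT hippocampus (n = 2) with their inputs (n = 2); the libraries of *Slm2* KO hippocampus, 2 eCLIP and 2 input, were not analysed here. The replicates of a tissue had been merged into 1 list per tissue, with the log2 fold change of eCLIP over input, a −log10 p for that enrichment and a −log10 of the irreproducible discovery rate (IDR) for each peak. The lists give no read count and no value per replicate, so the values below carry no spread between replicates, and all of them are descriptions without a test. Hippocampal lysates pooled several hippocampi, and by the study's sequencing statistics each hippocampal library held fewer reads than its whole-brain counterparts, so that tissue and sequencing depth cannot be told apart.

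SLM2 belongs to the STAR family of RNA-binding proteins, acts in neuronal nuclei as a regulator of alternative splicing, and recognises short A- and U-rich elements of the type UWAA, where W is U or A. RNA-binding proteins often control their own transcripts and those of each other, for example by keeping an intron in the mature RNA or by including a poison exon, an exon that introduces a premature stop codon and sends the transcript to nonsense-mediated decay (NMD). The 5 genes represent several arms of this network. *Elavl3* encodes the neuronal ELAV-like protein HuC and *Nova1* a neuronal KH-domain splicing regulator. *Tardbp* encodes TDP-43, a nuclear protein that binds UG repeats and represses cryptic exons. *Fmr1* encodes FMRP, the translational regulator lost in fragile X syndrome, and *Tia1* encodes a splicing regulator and core protein of stress granules.

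The sequences of the bound stretches differed widely in how many UWAA elements they held. They are written 5′ to 3′ along the transcript, from the GRCm38 genome, with every UWAA (UUAA or UAAA) in capitals. The peaks of *Elavl3*, *Fmr1* and *Tia1*, which lie in introns of the protein-coding transcripts, are given whole because they show this range, and for *Nova1*, whose peak lies in a 3′ UTR in some annotated transcripts, only the 30 nt with the most UWAA are given.
*Elavl3* peak 1 (chr9:22050881-22050961, minus strand): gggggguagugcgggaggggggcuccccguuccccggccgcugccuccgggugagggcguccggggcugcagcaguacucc
*Elavl3* peak 2 (chr9:22043244-22043343, minus strand): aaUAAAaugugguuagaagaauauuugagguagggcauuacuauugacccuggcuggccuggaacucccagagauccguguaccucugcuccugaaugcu
*Fmr1* peak (chrX:68693863-68693958, plus strand): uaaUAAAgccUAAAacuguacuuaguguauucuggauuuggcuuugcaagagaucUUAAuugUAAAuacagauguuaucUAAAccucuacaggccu
*Tia1* peak (chr6:86420798-86420922, plus strand): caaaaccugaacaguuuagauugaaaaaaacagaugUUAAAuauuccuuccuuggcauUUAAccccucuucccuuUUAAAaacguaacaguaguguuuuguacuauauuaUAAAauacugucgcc
*Nova1*, 30 nt within its peak (chr12:46701585-46701614, minus strand): UAAAcUUAAAaugacuauuuguccaaUUAA

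*Elavl3* peak 1 held no UWAA at all and peak 2 held 1, at its very 5′ end. The *Fmr1* peak held 5, spread along its 96 nt, and the *Tia1* peak held 6 in 125 nt, some of which overlap each other. The *Nova1* peak was the longest, with 204 nt and 11 UWAA, of which 4 start within the 30 nt shown.

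The enrichment of the member peaks over input was of ordinary size for the list. In whole brain their log2 fold changes ran from 2.16 to 3.01 with a median of 2.44, against a range of 2.00 to 6.04 and a median of 2.56 over all 2057 peaks. *Elavl3* peak 2 was the strongest, with a log2 fold change of 3.01 (rank 450 of the list) and a −log10 p of 6.06. *Fmr1* followed with 2.85 (rank 628), although its −log10 p of 3.39 was the lowest of the whole-brain member peaks. *Nova1* had a log2 fold change of 2.65 (rank 880) and a −log10 p of 5.04. The other whole-brain peaks stood nearer the threshold of 2 that the list was cut at. They were *Elavl3* peak 1 with a log2 fold change of 2.22, *Tia1* with 2.17 and *Tardbp* with 2.16, at −log10 p of 4.29, 4.36 and 3.77 in that order, and at ranks 1619, 1729 and 1749. The −log10 IDR ran from 2.24 in *Fmr1* to 3.10 in *Elavl3* peak 2. As the lists hold only peaks past both thresholds, the values of peaks just outside them are not known here. The hippocampal *Tardbp* peak had a log2 fold change of 2.51, near the median of 2.50 of its list, a −log10 IDR of 2.96 and a −log10 p of 1.30. Of the hippocampal peaks 53.4% have a −log10 p below 2, whereas the lowest value in the whole-brain list is 2.82.

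**Figure D1:**
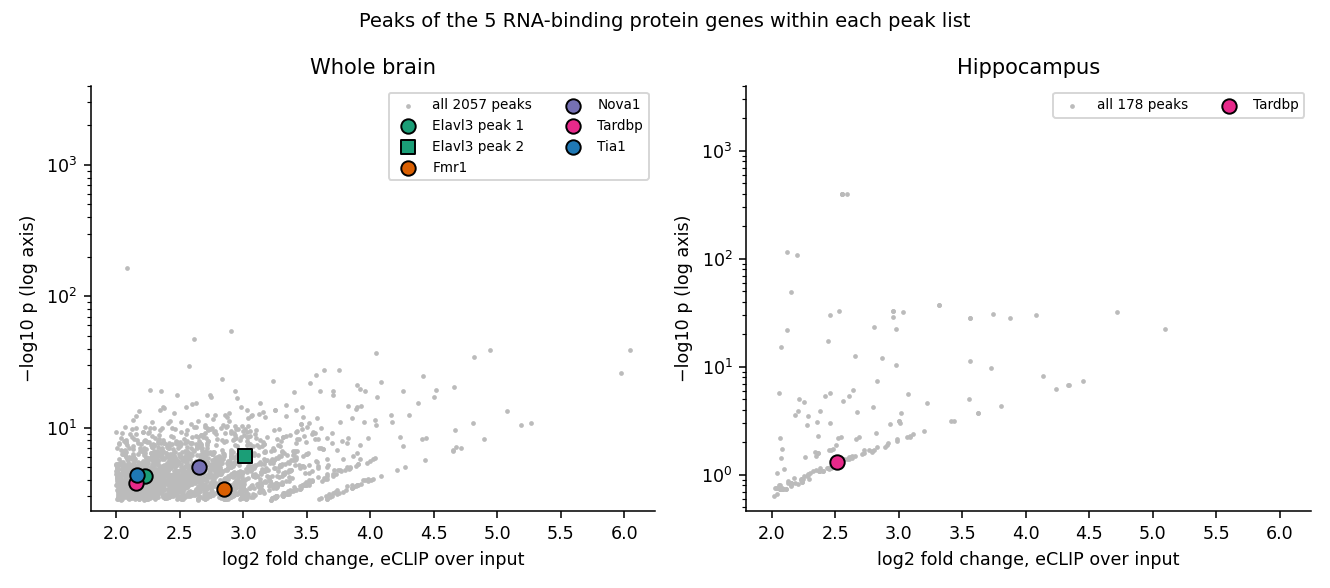
Each point is a peak, with its log2 fold change of eCLIP over input on the horizontal axis and its −log10 p on a logarithmic vertical axis, for whole brain (left) and hippocampus (right). The 6 coloured whole-brain peaks of the 5 genes lie within the grey cloud of all peaks, between log2 fold changes of 2.16 and 3.01, and the hippocampal *Tardbp* peak has a −log10 p of 1.30.

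The sites stood alone within their genes. *Fmr1*, *Nova1*, *Tardbp* and *Tia1* held 1 whole-brain peak each and *Elavl3* held 2, which were 7538 nt apart. No further peak of either tissue lay within 10 kb of any of the 5 genes, and none lay on their opposite strand. The genes were shorter than most targets of SLM2. They span 14.6 kb (*Tardbp*), 29.2 kb (*Tia1*), 37.0 kb (*Elavl3*), 39.4 kb (*Fmr1*) and 124 kb (*Nova1*), against a median of 240 kb over the 421 protein-coding genes with a whole-brain peak. Of those 421 genes, 10 are shorter than *Tardbp* and 131 are shorter than *Nova1*.

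**Figure D2:**
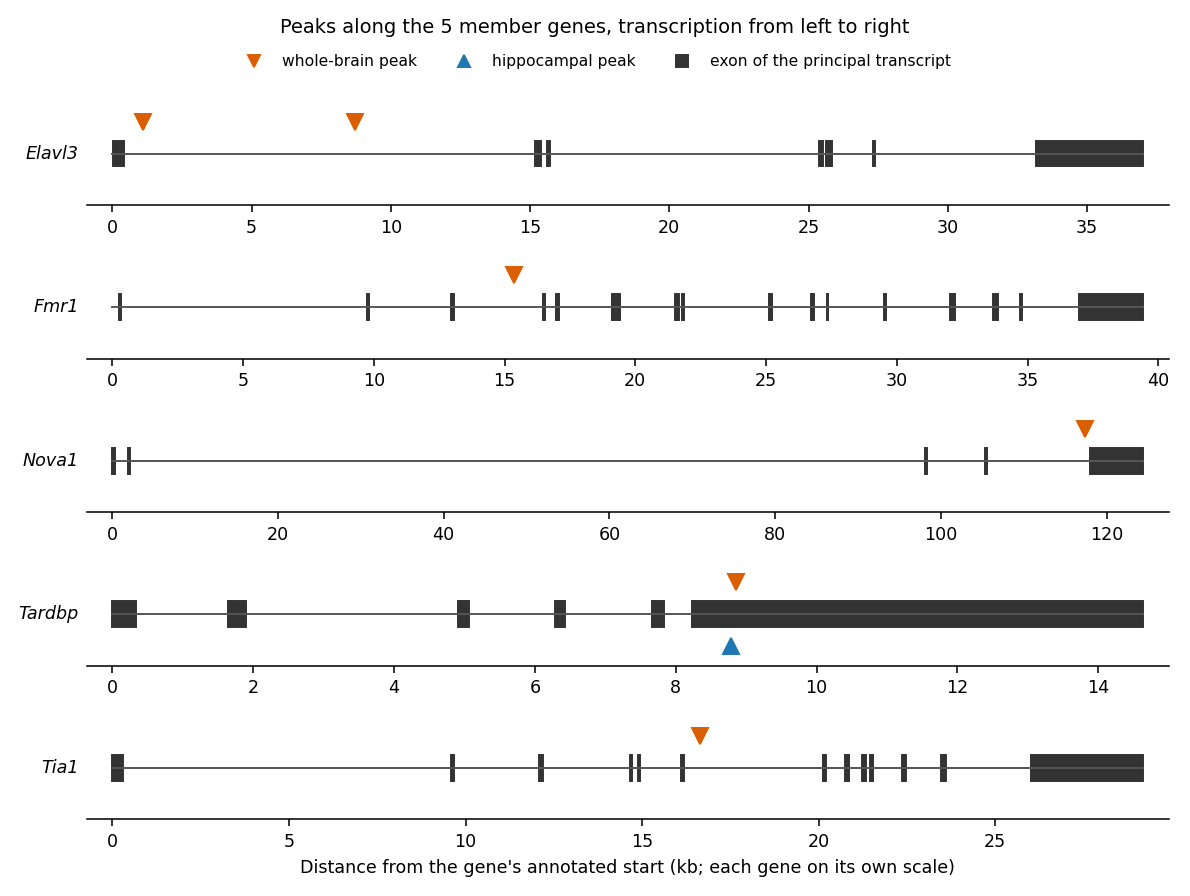
Position of the peaks (triangles; whole brain above the gene line, hippocampus below it) and of the exons of the principal transcript (boxes) along each gene, in kb from the annotated start of the gene, each gene on its own scale. Both *Elavl3* peaks lie in intron 1, the *Nova1* peak lies just before the last exon, and both *Tardbp* peaks lie in the last exon.

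Member peaks lay in introns, in a retained intron and in a 3′ UTR. By the transcripts of the member gene itself, 4 of 6 were intronic (*Elavl3* peaks 1 and 2, *Fmr1* and *Nova1*), 1 lay in an annotated retained intron (*Tia1*) and 1 in a 3′ UTR (*Tardbp*). Where each peak of the list is likewise given to 1 gene, 96.3% of the whole-brain peaks were intronic. With every gene on the strand considered, introns took 94.7%, exons of transcripts without a coding frame 3.84% and 3′ UTRs 0.778% of the list, or 16 peaks. Within 500 nt of an exon lay 3 of the 6 member peaks (*Nova1*, and *Tardbp* and *Tia1*, which lie over annotated exons), against 10.9% of the list, a difference given here as a description since 6 peaks chosen by their genes allow no test.

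*Tardbp* was the member with a peak in both tissues, and its peaks lay at or shortly after the stop codon. In the principal transcript Tardbp-202, whose 6 exons end in a last exon of 6410 nt, the whole-brain peak (chr4:148618119-148618205) covered the bases from 56 to 142 nt after the stop codon. The hippocampal peak (chr4:148618183-148618280) began 17 nt before the stop codon and ended 78 nt after it. The peaks shared 23 nt, which is 26.4% of the whole-brain peak and 23.5% of the hippocampal peak, and their centres were 69 nt apart. TDP-43 is known to bind the 3′ UTR of its own transcript and to bring about splicing of introns there that lowers its own level, and the annotation of this stretch holds many alternative introns. Among the 30 annotated transcripts of *Tardbp*, 20 splice out the stretch around the whole-brain peak as part of an intron of 821 to 2835 nt, with 11 different pairs of splice sites, and 12 of these 20 are typed as protein-coding and 8 as targets of NMD. The stretch is exonic in Tardbp-202 and in 2 NMD transcripts, Tardbp-208 and Tardbp-228. The nearest annotated splice site was a 3′ splice site 293 nt downstream of the whole-brain peak and 357 nt downstream of the hippocampal peak. RefSeq gave the same picture, with the stretch exonic in 3 and intronic in 7 of 10 transcripts. By the definition used here, an exon of an NMD transcript that shares no base with a protein-coding exon, *Tardbp* has no poison exon, and its nearest annotated retained intron lay 6880 nt from the whole-brain peak. Whether the bound RNA was the unspliced or the spliced form is not recorded in a peak list.

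*Tia1* held the member peak inside an annotated retained intron. The peak lay in intron 6 of the principal transcript Tia1-202, an intron of 3933 nt, 387 nt downstream of exon 6 (chr6:86420324-86420411) and 3423 nt upstream of exon 7. The retained-intron transcript Tia1-213 runs on through the 5′ splice site of this intron for 1708 nt (chr6:86420412-86422119), and the peak lies entirely within that stretch. Of the other 16 transcripts that span the site, 5 are protein-coding, 5 carry other retained introns, 3 are NMD targets and 3 are processed transcripts, and all of them splice it out, as do all 14 RefSeq transcripts of the gene. *Tia1* was also the member with poison exons by the definition above. It has 3 of them, of 119, 66 and 110 nt, and the nearest (chr6:86419694-86419812) lay 986 nt upstream of the peak, on the far side of exon 6, and the others 2684 and 5910 nt downstream. Over the whole-brain list, 30 peaks (1.46%) had their centre in an annotated retained intron and 9 (0.438%) lay within 1000 nt of a poison exon.

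The *Nova1* peak lay shortly upstream of an alternative last exon. It lay in intron 4 of the principal transcript Nova1-201, 471 nt upstream of the last exon, exon 5, and 11851 nt downstream of exon 4. The isoform Nova1-204 uses an alternative last exon of 310 nt (chr12:46701075-46701384), and the peak lay 60 nt upstream of that exon, the shortest distance between a peak and a downstream exon among the intronic member peaks. The annotation at this site is not settled. The peak also lies within *Gm33869*, an unclassified gene on the same strand with 1 exon of 3.14 kb, whose reads cannot be told apart from those of *Nova1*, and 5 of 26 RefSeq transcripts extend a 3′ UTR over it while 20 splice it out. GENCODE annotates a retained intron of *Nova1* only 18131 nt away and no poison exon.

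The *Fmr1* peak lay deeper within its intron. It fell in intron 3 of the principal transcript Fmr1-204, which has 17 exons, 2269 nt downstream of exon 3 and 1056 nt upstream of exon 4 (chrX:68695014-68695085). The 6 protein-coding and 2 retained-intron transcripts that span the site all splice it out, and so do the 7 RefSeq transcripts. The nearest annotated retained intron began 840 nt downstream, where a further retained-intron transcript starts ahead of exon 4. *Fmr1* has no poison exon by the definition used.

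Both *Elavl3* peaks lay in intron 1, which has 14729 nt in the principal transcript Elavl3-201, and they were unlike each other. Peak 1 lay 629 nt downstream of exon 1, and 77.2% of the 101 nt around its centre were G or C. Peak 2 lay 8247 nt downstream of exon 1 and 6384 nt upstream of exon 2, with 46.5% G or C. Repeat-masked bases made up 67.0% of peak 2 and 14.8% of peak 1. Over the whole-brain list the median share of G and C was 33.7%, which the other members resembled more closely, with 31.7% in *Fmr1* and *Nova1*, 28.7% in *Tia1* and 27.7% in *Tardbp*. *Elavl3* has neither a retained intron nor a poison exon in the annotation. Its peaks also lie in an intron of *Gm49318*, a protein-coding gene on the same strand that spans 34.9 kb, so that *Elavl3* reads and *Gm49318* reads cannot be told apart.

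**Figure D3:**
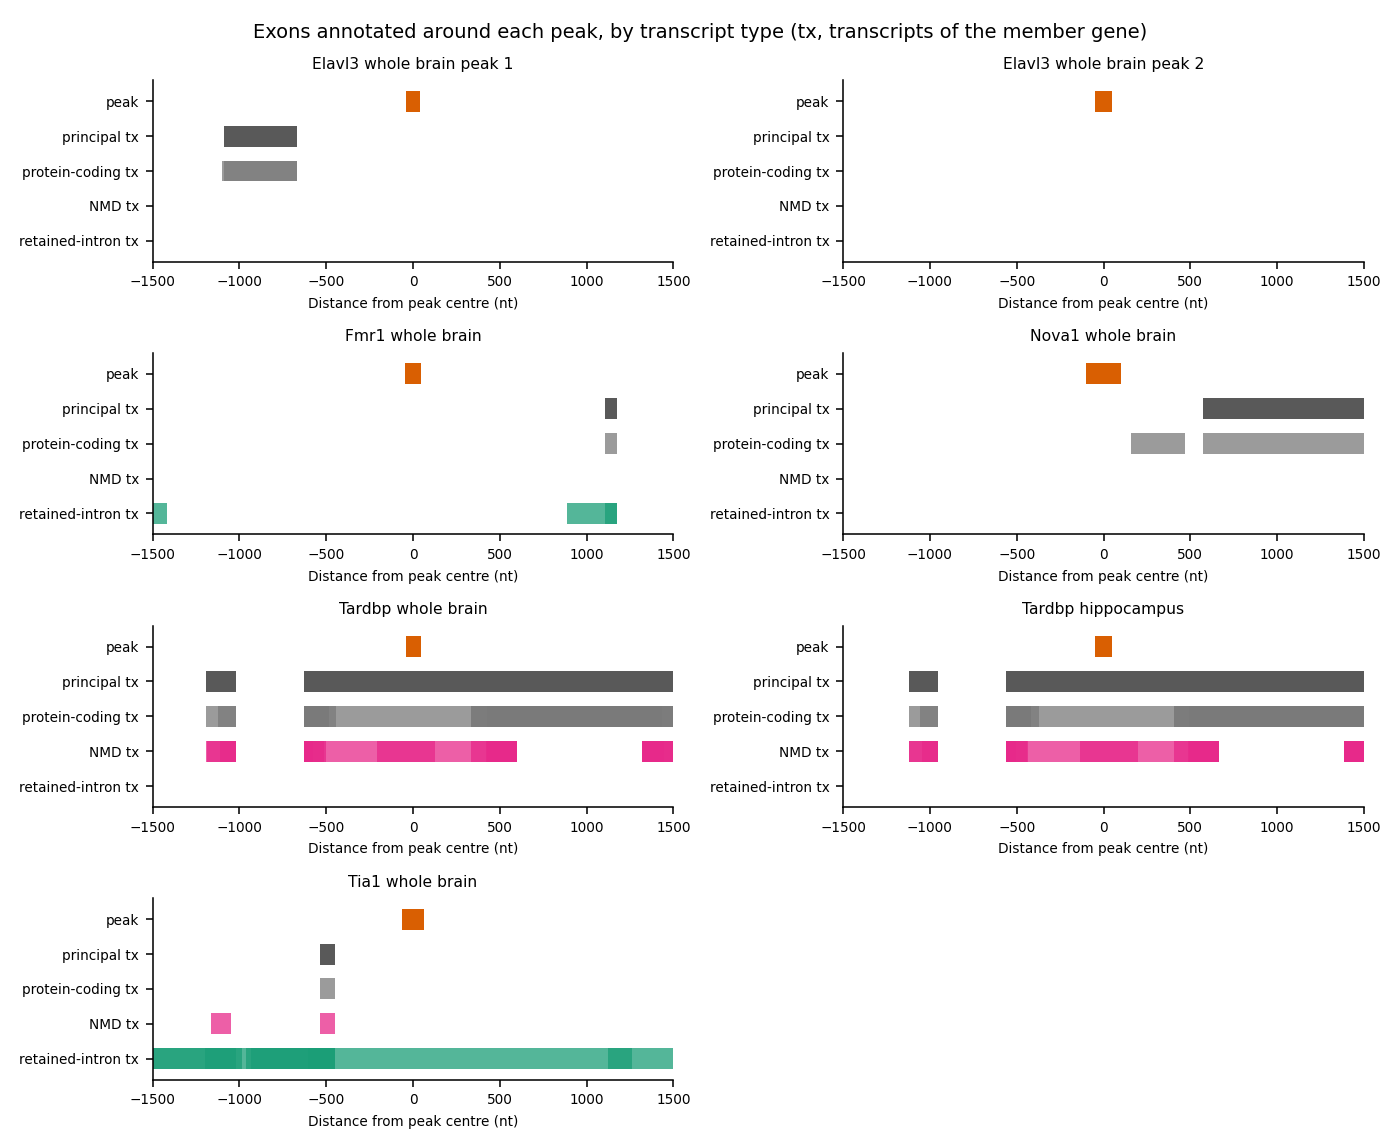
Exons annotated within 1500 nt of the centre of each member peak (orange), shown for the principal transcript and for all protein-coding, NMD and retained-intron transcripts of the gene, with distance from the peak centre in nt along the transcript. The *Tia1* peak lies over a retained-intron exon, both *Tardbp* peaks lie over the last exon of the principal transcript, and the *Nova1* peak ends 60 nt before an alternative exon.

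With flanks centred 500 nt away, UWAA was denser at the member peaks than beside them in all 5 genes. With flanks centred 250 or 1000 nt away this held in 4 of 5. By peak, 5 of the 6 were above their flanks at 500 nt, against 66.5% of the 2057 whole-brain peaks. Density was counted as the number of UWAA starts per 100 positions in the 101 nt around the peak centre and, for comparison, in flanks of the same width centred 500 nt upstream and downstream, on the transcript strand alone and with overlapping matches counted. *Tia1* had 5 UWAA at its peak, a density of 5.10, against 0.510 in the flanks. *Fmr1* also had 5 and a density of 5.10, but 3.06 in the flanks, where all 6 UWAA lay on the upstream side. *Nova1* had 4 UWAA and a density of 4.08, against 2.04 in the flanks, and *Tardbp* in whole brain had 3 UWAA and a density of 3.06, against 0.510. For *Elavl3* the mean over its peaks was 0.510 (1 UWAA at peak 2, none at peak 1), against 0 in the flanks. Averaged over the 5 genes the density was 3.57 ± 1.91 at peaks and 1.22 ± 1.28 in the flanks (SD over genes, n = 5). Averaged over the 6 peaks it was 3.06 at peaks and 1.02 in flanks, against 3.59 and 1.80 over the whole-brain list. UWAA was present around the centre of 5 of the 6 member peaks, against 83.6% of the list. The hippocampal *Tardbp* peak was below its flanks, with 1 UWAA, a density of 1.02 at the peak and 2.04 in its flanks. In the hippocampal list 46.1% of the 178 peaks were above their flanks and 67.4% had UWAA, so a peak not above its flanks was common there.

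Set against the whole of each gene, the peaks of *Fmr1*, *Nova1*, *Tardbp* and *Tia1* were also rich in UWAA. Whole-gene density was not computed for other targets. Over the whole-brain list UWAA was likewise denser at peaks (3.59) than in flanks (1.80), so this is no trait particular to the members. The density was 5.10 at the peak and 2.12 over the whole of *Fmr1*, and 4.08 and 1.88 for *Nova1*. For *Tardbp* it was 3.06 and 1.49, and for *Tia1* 5.10 and 1.69. *Elavl3* had the fewest UWAA of the 5 genes, 0.694 per 100 positions over its span, and 0.510 at its peaks. Around the 5′ end of the peaks, where reverse transcription stops at cross-linked bases gather in eCLIP, the picture changed for *Elavl3* peak 2, which had 7 UWAA within 50 nt of its 5′ end and 1 around its centre. *Fmr1* had 8 there, *Nova1* 6, *Tia1* 4, *Tardbp* 2 in whole brain, and *Elavl3* peak 1 again none, against a mean of 3.57 over all whole-brain peaks. The hippocampal *Tardbp* peak had 1, against a mean of 2.56 over all hippocampal peaks.

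**Figure D4:**
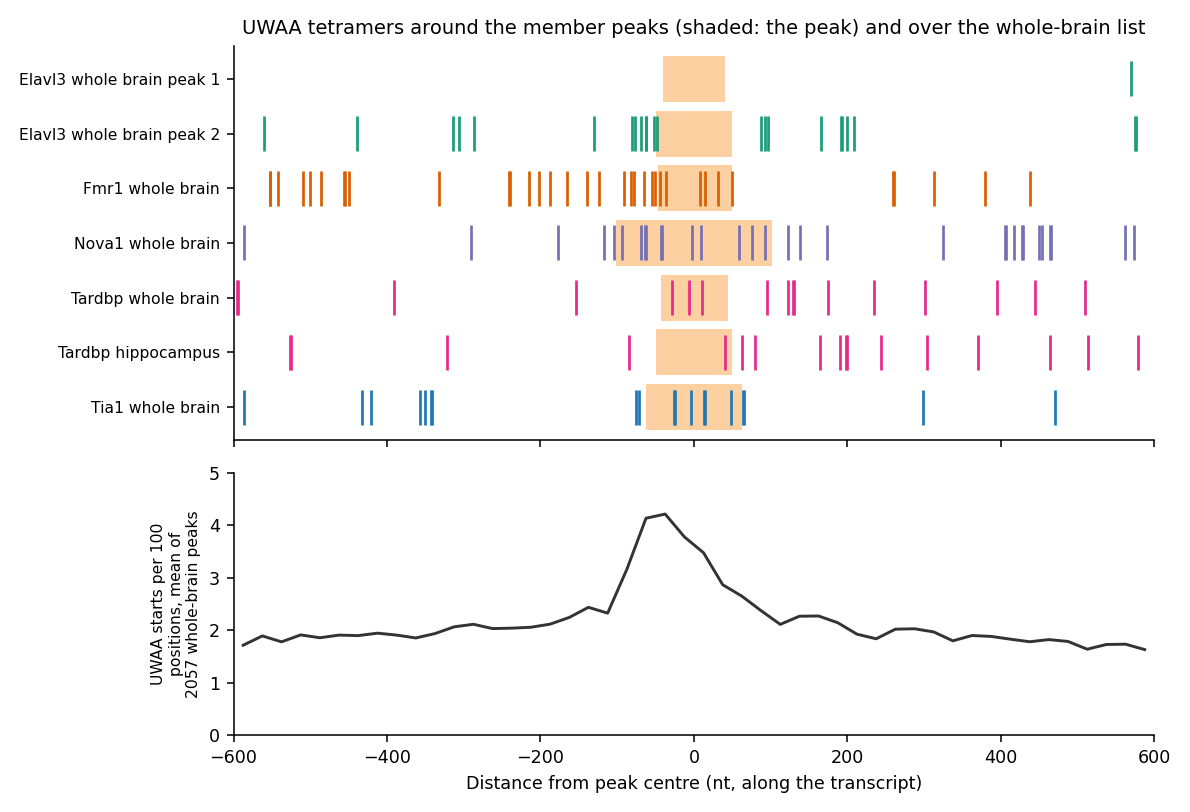
Top, start positions of UWAA (ticks) within 600 nt of the centre of each member peak (shaded), along the transcript. Bottom, UWAA starts per 100 positions averaged over the 2057 whole-brain peaks in bins of 25 nt, which reach 4.21 just upstream of the centre, while *Elavl3* peak 1 has no UWAA in or near its peak and *Elavl3* peak 2 has a cluster of UWAA at its 5′ edge.

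The longer form of the SLM2 element, counted as UUUAAAA or UUAAAAA, occurred at *Tia1*, with 2 overlapping starts, and at *Nova1*, with 1, and at no other member peak. It was present around 18.9% of whole-brain peak centres and in 8.41% of their flanks. The motifs of the members' own proteins were counted in the same windows. UGUGUG, which TDP-43 binds, occurred at none of the 6 whole-brain member peaks, *Tardbp* included, and around 5.83% of the peak centres of the list. UUUUU, bound by ELAV-like proteins and TIA1, occurred at *Tardbp* alone and around 14.1% of the list. The YCAY tetramers of NOVA proteins, where Y is C or U, occurred at 3 of the 6 peaks, *Nova1* among them, against 72.2% of the list. These matches describe letters in a window and not a bound protein, and no member peak held 10 nt or more of the sequencing adaptors.

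In the 94 RNA-binding protein genes listed for this report, 147 of 150 whole-brain peaks lay in genes of neuronal splicing regulators. Of these, 102 lay in *Rbfox3* and 31 in *Celf2*, so the count mainly describes these genes and not the class. They span 422 and 970 kb, and gene length was not taken into account. Of 94 listed genes, 13 (13.8%) held a whole-brain peak, against 1.92% of all 21951 protein-coding genes, and 4 (4.26%) held a hippocampal peak, against 0.378%. Nothing is read from these shares about the 5 members, which were chosen for having a peak. Without them, 8 of 89 listed genes (8.99%) held a whole-brain peak. The lists too were drawn up with earlier results of these data known, so nothing is read from this share either. Of 27 neuronal splicing regulators 10 were among the targets, led by *Rbfox3* with 102 whole-brain peaks and *Celf2* with 31, and followed by *Celf4* with 4, *Rbfox1* with 3, *Elavl3* with 2, and *Khdrbs2*, *Khdrbs3*, *Nova1*, *Qk* and *Srrm3* with 1 each. None of 26 genes of hnRNP proteins and none of 13 genes of SR and Tra2 proteins held a peak in either tissue. At the shares of 1.92% and 0.378% over all protein-coding genes, lists this short would often hold none. Nothing is read from these absences. Of 24 genes for proteins of translation control and RNA granules, only *Fmr1* and *Tia1* had a peak. Both are members chosen for having one, as are *Elavl3* and *Nova1* among the 10 neuronal splicing regulators. In hippocampus *Rbfox3* and *Celf2* held 3 peaks each, and *Rbfox1* and *Tardbp* 1 each.

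**Figure D5:**
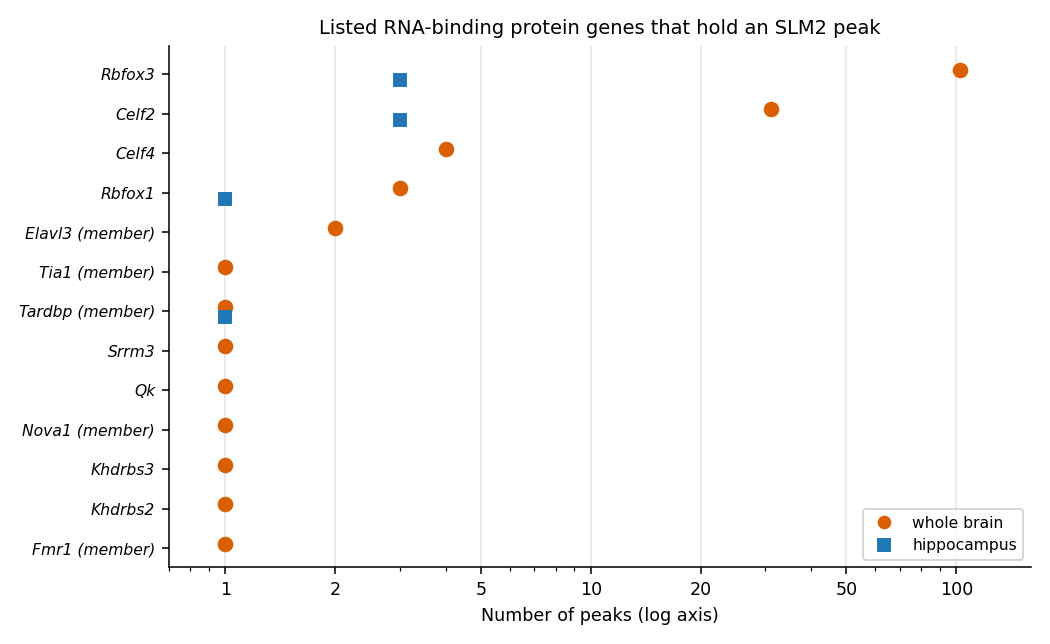
Number of peaks (logarithmic axis) in whole brain (circles) and hippocampus (squares) for the 13 listed RNA-binding protein genes with at least 1 peak. The 5 members have 1 or 2 whole-brain peaks, against 102 for *Rbfox3* and 31 for *Celf2*, and *Tardbp* has 1 peak in each tissue.

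The close relatives of the members that were examined were not in the lists. *Elavl1*, *Elavl2* and *Elavl4*, the FMRP relatives *Fxr1* and *Fxr2*, *Nova2* and the TIA1 relative *Tial1* held no peak in either tissue, which says only that no site passed the thresholds. The same was true of *Ewsr1* and *Taf15*, which were grouped with *Tardbp* here. As 1.92% of all protein-coding genes held a whole-brain peak, absence from so few genes does not set them apart. The splicing regulators with the most peaks are set beside the members here. The 105 whole-brain peaks of the Rbfox genes were intronic in 103 cases and had UWAA in 26.7%, with a mean density of 0.505, and 12.4% lay within 500 nt of an exon. The 38 peaks of the STAR-family and CELF genes were all intronic, all had UWAA, with a mean density of 3.95, and none lay within 500 nt of an exon. The mean of 3.06 over the 6 member peaks stood between them. In hippocampus, with few peaks, the order was the other way round. The 4 Rbfox peaks had UWAA in 3 cases, with a mean density of 2.81, and the 3 STAR-family and CELF peaks had none, with 1 of them within 500 nt of an exon, while the *Tardbp* peak had a density of 1.02. These differences between sets of genes were not tested, because peaks of a gene share their sequence context and the members were chosen by their peaks.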

How the data were processed

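The deposited files are 2 peak lists, for WT whole brain and WT hippocampus, each merged by the authors over 2 eCLIP replicates. Per the labels and the methods, reads were trimmed with cutadapt 3.4, mapped to mm10 with STAR 2.7.9 and deduplicated with UMI-tools 1.1.1, and peaks were called with CLIPper and merged by IDR. The authors computed the log2 fold change over input and the −log10 p of each peak, and retained those reaching 2 in both fold change (log2) and −log10 IDR. The deposited −log10 IDR was treated as a score. The lists have no header, and the meaning of the columns was taken from the study's supplementary tables.

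Peaks were matched by centre and strand to GENCODE vM21, and sequence was read from GRCm38, the same build as mm10, with Python 3.11.15 and pysam 0.24.0. Distances run from peak edge to exon edge, the next base counting as 1. The principal transcript is that of the annotation. Helper functions were tested on simulated data. Named were the members, their paralogs, and every listed RNA-binding protein gene with a peak, except an item that is not reported here. Members and lists were chosen with earlier results of these data known. RefSeq transcripts were added as an alternative after the data were seen. Alternatives covered stricter thresholds, other overlap rules, distances, windows and annotation. KO libraries, read counts and tracks were not analysed here.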

Additional observations from a re-analysis of the deposited data

How the results depend on the processing

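Stricter thresholds left few sites. With the log2 fold change required to reach 3, and also with the −log10 IDR required to reach 3, 1 of the 6 whole-brain member peaks was left, *Elavl3* peak 2. The hippocampal *Tardbp* peak was lost at either, and also where the −log10 p had to reach 3, with 0 left each time, whereas all 6 whole-brain peaks passed that p. Any overlap in place of the centre, strand ignored, or adaptor peaks left out gave 6 and 1. Intronic member peaks numbered 5 by protein-coding transcripts alone, 4 by RefSeq (*Tia1* in, *Nova1* out) and 3 with every gene on the strand. Within 1000 nt of an exon lay 5 peaks in place of 3, and within 500 nt of a poison exon 0 in place of 1. Listed RNA-binding protein genes with a whole-brain peak numbered 3 where the fold change (log2) had to reach 3, 5 with at least 2 peaks and 8 without the members, in place of 13. In hippocampus they numbered 2 at that fold change and 2 with at least 2 peaks, in place of 4. UWAA density stayed between 3.06 and 4.80 at member peaks and between 0.816 and 2.14 in flanks. Flanks centred 1000 nt away gave the smallest difference. Leaving out windows more than 20% repeat-masked kept only 3 genes (*Tia1*, *Nova1* and *Tardbp*), with 4.08 at peaks and 1.02 in flanks. *Elavl3* and *Fmr1* could not be assessed in that setting. With flanks centred 250 nt away and with those at 1000 nt, 4 of 5 genes were above their flanks. The lists hold no counts, so depth limits every statement on an absent peak. No paired analysis was possible because no result comes from a test.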

Other observations

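Short words shared by the member sites were looked for after the values were seen. Of 1024 possible 5-mers, 6 were present at 4 or more of the 6 whole-brain member peaks within 50 nt of the centre. The most widely shared, UAAAA, was present at 5 and at 54.1% of all whole-brain peaks. AAAUA was present at 4 and at 49.2% of the list, AUAUU at 4 and at 22.6%, and CCUCU at 4 and at 10.7%. GUACU was present at 4 of 6 (*Elavl3* peak 1, *Fmr1*, *Tardbp* and *Tia1*) and at 6.56% of the list, and UGUAC at 4 of 6 (*Elavl3* peak 2, *Fmr1*, *Tardbp* and *Tia1*) and at 7.05% of the list. In *Fmr1*, *Tardbp* and *Tia1* GUACU and UGUAC overlap as UGUACU. The words were picked from all 5-mers for how many member peaks hold them, so their shares are a description of 6 windows and no evidence of a common element.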
